A study of Mus musculus with 96 samples.

Results

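Oxidative phosphorylation runs on protein complexes of the inner mitochondrial membrane, and the genes described here are those whose symbol in the array annotation begins with Nduf followed by a, b, c, s or v, is Sdha, Sdhb, Sdhc or Sdhd, or begins with Uqcr, with Cox and a digit from 4 to 8, or with Atp5. This rule, which uses names and no measured value, found 90 of the 18193 genes on the arrays, each read by its brightest probe set with a single gene symbol. By symbol, they were 36 genes of complex I, 8 complex I assembly factors with the stem Ndufaf, all 4 genes of complex II, 8 of complex III, 17 of complex IV and 17 of the ATP synthase. Complexes were assigned by name alone, so that Ndufa4 and Ndufa4l2 count with complex I, and the composition of the enzymes was not checked. The assembly factors match the name rule but are not subunits of the finished enzyme and are counted apart. Another 10 probe sets carried a matching symbol together with others and were not used.

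Complex I takes electrons from NADH and complex II takes them from succinate; both pass them to ubiquinone, from which complex III moves them to cytochrome c and complex IV to oxygen. Complexes I, III and IV pump protons across the membrane, and the ATP synthase uses the returning protons to make ATP. Complex II is also an enzyme of the citric acid cycle. Hepatocytes are rich in mitochondria, and all the genes described here are in the nucleus; the subunits made from mitochondrial DNA had no probe set under the symbols searched.

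Liver RNA of CD-1 mice, an outbred stock, was measured on 96 arrays. Females and males took PB with the food at 150, 75, 15, 1.5 or 0.15 mg/kg-day or stayed at dose 0, and RNA was taken on day 2 or day 7, which gave 24 groups of 4 arrays with no genotype other than the stock and no age given. The labels do not spell out PB; in studies of the receptor CAR, named in the series title, it commonly stands for phenobarbital. The titles write ppm after these numbers in place of mg/kg-day, and which unit is right was not settled. Whether each array is a separate mouse is not stated, so every p-value measures the spread between these arrays, which may be technical.

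Levels and changes are log2 values, and the number of arrays limits their precision. The medians of the arrays lay between 5.35 and 5.44. The mean of 7 hepatocyte markers at 0 and at 150 ran from 13.80 to 13.92 and from 13.77 to 13.81 in females on day 2, and from 13.72 to 13.85 and from 13.68 to 13.80 on day 7. In males it ran from 13.90 to 13.94 at 0 and from 13.82 to 13.86 at 150 on day 2, without overlap, and from 13.81 to 13.89 and from 13.70 to 13.89 on day 7. The reference gene of the response, Cyp2b10, a cytochrome P450 induced through CAR, rose by between 5.44 and 6.11 at 150. A pair of arrays went against their labels: the male day 2 library labelled 15, replicate 1, had Cyp2b10 at 13.66 against 11.07 to 11.29 on the other 3, and the library labelled 75, replicate 1, had 10.98 against 13.19 to 13.36. The main counts of called genes that rest on those arrays are given with and without them. Other values that use those arrays include them.

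The 90 genes were bright and steady: 82 had a mean above that of the median gene, 72 had a mean over 10, and the median SD within a group was 0.084 on the log2 scale, against 0.150 over all genes and 0.144 over the 9096 brighter genes, those above the median mean. Cox7b2 and Ndufb4 lay at or below the highest lower quartile of the arrays, a range in which little signal can be told from background.

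At 150 mg/kg-day, few of these genes changed, and nearly all that did were lower. Females on day 2 had 4 falls and 1 rise among 90 genes, where 2.14% of all genes fell and 3.32% rose. On day 7, 1 fell and 0 rose in females, where 0.923% of all genes fell and 1.52% rose. Males on day 2 had 4 falls and 0 rises, against 2.40% and 2.50% of all genes. On day 7, 1 fell and 0 rose in males, against 0.835% and 2.20%. Among the 82 that belong to the 9096 brighter genes, 4.88%, 1.22%, 4.88% and 1.22% fell in these 4 comparisons, near the 3.72%, 1.59%, 4.29% and 1.50% of all brighter genes. At an unadjusted p under 0.05, 15, 10, 25 and 7 genes were lower in these 4 comparisons, where 8.84%, 7.21%, 9.84% and 6.10% of all genes were, and 4, 1, 0 and 0 were higher, where 7.32%, 6.49%, 6.23% and 8.82% were. Called means an adjusted p under 0.05 (limma, two-sided, Benjamini-Hochberg over all 18193 genes of the comparison), and "fell" and "rose" are used of called genes only. These 11 calls belonged to 8 genes, the falls were between 9.42% and 19.3% of the level at dose 0, and in 8 of the 10 falls all 4 arrays at 150 lay below all 4 at 0. Fitted to the arrays of one sex and day alone, 1, 0, 1 and 0 genes fell, Sdha being the one on day 2 in each sex, and 0 rose. With arrays centred on their medians, 0 fell on day 7 in either sex, and the share of higher genes among all calls in females on day 7 went from 62.2% to 74.5%. In a whole liver sample, fewer cells of a type and less RNA per cell cannot be told apart.

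The shift was slight. The median log2 change of the 90 genes was -0.061 in females on day 2, where that of all genes was -0.025, and -0.031 against -0.018 on day 7. In males it was -0.070 against -0.019 on day 2 and -0.027 against 0.003 on day 7. The medians of the brighter genes were -0.016 and -0.013 in females and -0.052 and 0.006 in males on days 2 and 7. Against these, the gap in males on day 2 was narrower than against all genes. The day 7 medians of the 90 genes moved with the scaling and with single arrays: with arrays centred on their medians they were -0.003 in females and -0.013 in males. The female value was -0.010 without control replicate 2, -0.013 without replicate 3 at 150, -0.051 without control replicate 1 and -0.056 without replicate 2 at 150. The male value was -0.011 without control replicate 1 and -0.012 without replicate 2 at 150. A change below 0 was measured for 69, 65, 69 and 54 of 90 genes in these comparisons, where 57.2%, 55.3%, 55.4% and 49.2% of all genes lay below 0. The 4 arrays at 150 lay wholly below the 4 at 0 for 10, 8, 14 and 6 genes, where 5.61%, 4.34%, 5.99% and 2.89% of all genes did so. The shares of all genes without overlap, and those at an unadjusted p under 0.05, were not computed for the brighter genes alone. Across the 4 comparisons, which share no arrays, 34 of 90 genes (37.8%) were below 0 each time, against 18.1% of all genes and 23.0% of the brighter genes.

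The 95% intervals bounded what could have been missed in the measured signal. They rest on the spread between arrays. Of these genes, 16 had a mean of 13 or more, where the maxima of the arrays lay between 14.86 and 14.97. Whether the brightest probe sets understate changes in RNA was not tested, so the bounds below are not bounds on RNA amount. For 78 genes in females on day 2, 81 on day 7, 81 in males on day 2 and 82 on day 7, the whole interval of the change at 150 lay within 1.25-fold of dose 0. Within 1.5-fold lay 87, 89, 89 and 89 genes. The exceptions to the wider bound were Cox7a1 in every comparison, with Ndufaf4 and Ndufaf5 in females on day 2.

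**Figure D1:**
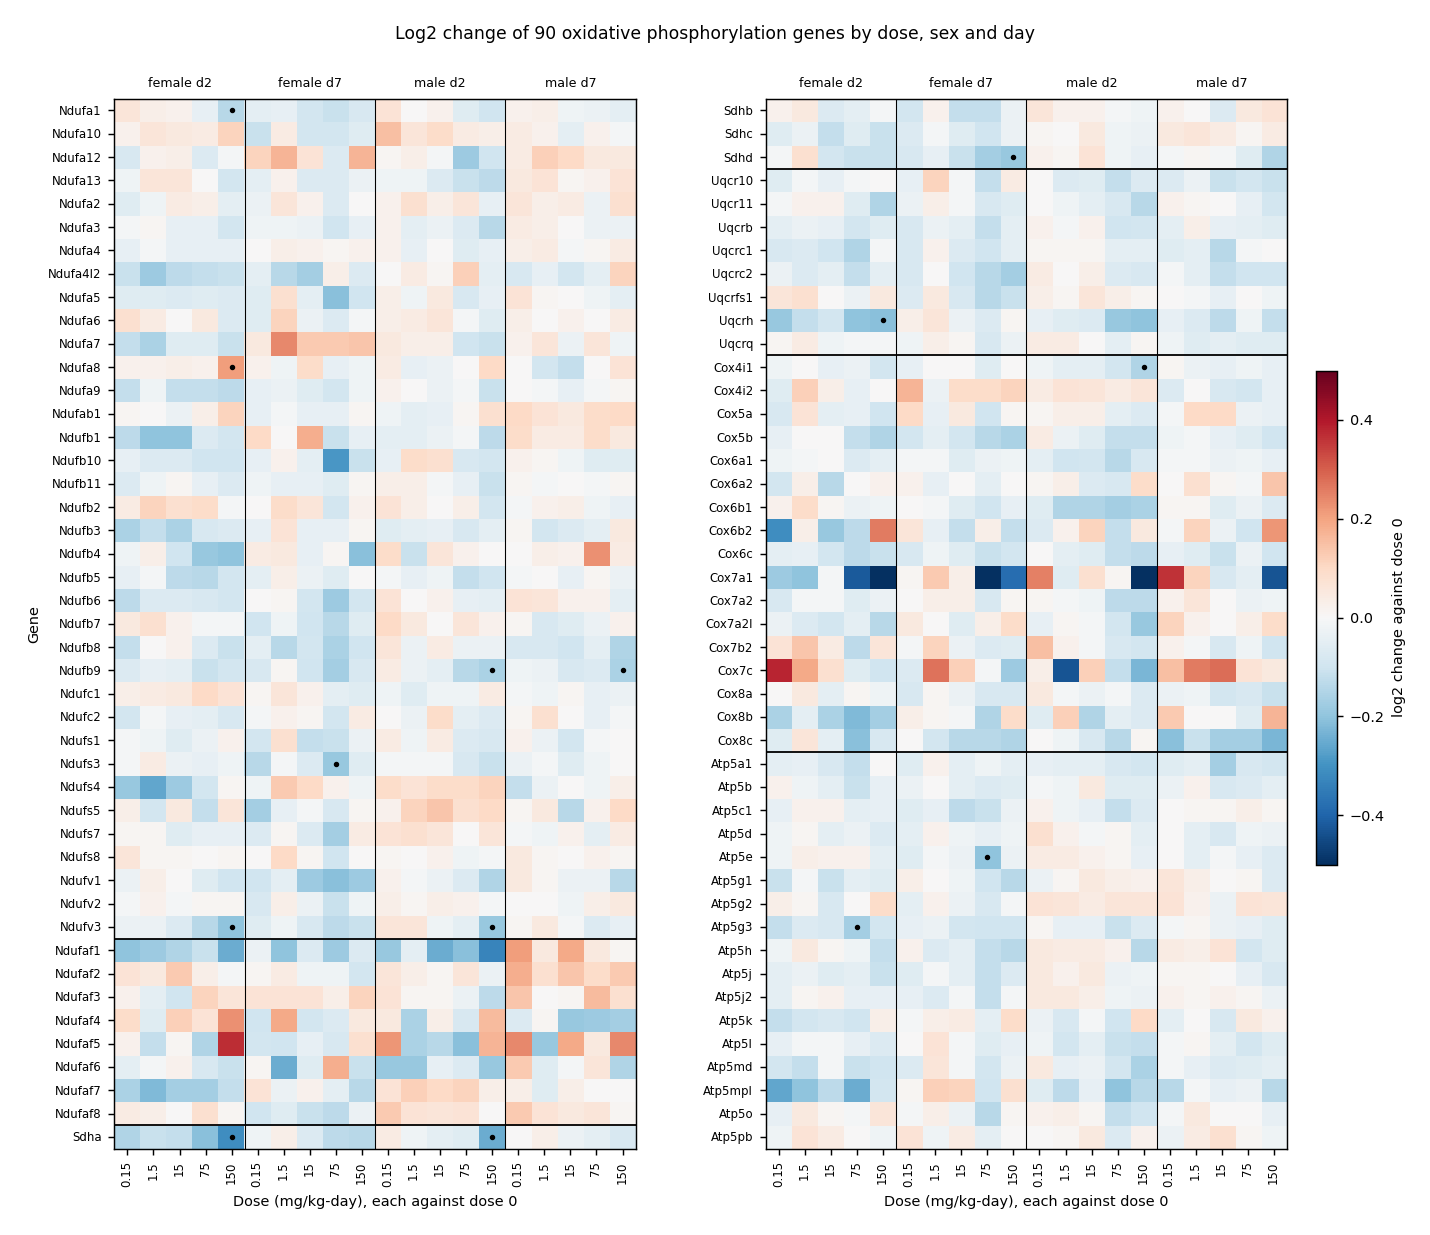
Log2 change of each of the 90 genes (rows, ordered by complex, with lines between complexes) at each dose, with dose 0 of that sex and day as the base (columns, dose in mg/kg-day); red is higher, blue lower, dots mark an adjusted p under 0.05, and colours stop at 0.5 in either direction, which Cox7a1 exceeds. The 14 dots of the panels are scattered over all complexes but lie at 75 and 150 only, and 13 of them are falls.

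Complex II held the steepest fall called at 150. Sdha encodes the flavoprotein that binds succinate and FAD. In females on day 2, Sdha read 12.39, 12.25, 12.37 and 12.38 on the 4 arrays at dose 0 and 11.99, 12.06, 12.09 and 12.02 at 150. The groups did not overlap, and every array at 150 was lower than the lowest at 0. The change was -0.31 ± 0.05 (SE; 95% interval -0.42 to -0.20; adjusted p = 2.89e-05), or 19.3% less.

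In males on day 2, Sdha read 12.17, 12.24, 12.36 and 12.28 at 0 and 12, 12.10, 11.92 and 12.01 at 150, again without overlap. It fell by 0.25 ± 0.05 (SE; adjusted p = 0.00126), or 16.1%. On day 7 the changes at 150 were -0.14 ± 0.05 in females (adjusted p = 0.207), where the groups did not overlap, and -0.08 ± 0.05 in males (adjusted p = 0.543), where they did. The change on day 7 minus that on day 2 was 0.17 in females (95% interval 0.02 to 0.33, adjusted p = 0.527) and 0.17 in males (0.02 to 0.33, adjusted p = 0.463), so no difference between the days was called. Both calls on day 2 held without any 1 of the 8 arrays, with adjusted p up to 0.000623 in females and 0.0161 in males.

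A second bright probe set for Sdha moved less, by -0.13 and -0.15 on day 2 and by -0.09 and -0.06 on day 7, in females and males. With the mean of the 4 Sdha probe sets, of which a pair is dim, the gene was no longer called at 150: the change was -0.16 in females on day 2 (adjusted p = 0.0677) and -0.12 in males (adjusted p = 0.240).

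Sdhd, a membrane anchor of complex II, was called in females on day 7. Its values were 11.78, 12.02, 11.94 and 11.91 at 0 and 11.77, 11.78, 11.66 and 11.65 at 150, so that only the lowest control reached the treated range. It fell by 0.19 ± 0.06 (SE; adjusted p = 0.0425), a call that ended without control replicate 2, 3 or 4 or replicate 3 or 4 at 150 (adjusted p up to 0.218). In males on day 7 it read 11.83, 11.81, 11.84 and 11.82 at 0 and 11.69, 11.58, 11.70 and 11.73 at 150, without overlap (-0.15 ± 0.06, adjusted p = 0.149). On day 2 it changed by -0.11 in females and -0.04 in males, neither called. Another probe set for Sdhd lay between -0.07 and 0.05 in all 4 comparisons at 150.

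The other members of complex II were not called. Sdhb, the iron-sulfur subunit, changed by -0.01, -0.03, -0.02 and 0.07 in females on days 2 and 7 and males on days 2 and 7, with a standard error of 0.07 each. Sdhc, the other anchor, changed by -0.11, -0.03, -0.03 and 0.04, with the same standard error.

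The promoters of Sdha and Sdhd are shown because both genes fell and hold matches to the palindrome of NRF1, a factor known for binding promoters of respiratory chain genes, beside that of Ndufv3, which fell in both sexes on day 2 and holds none. Each stretch is the 250 bases before the RefSeq start site (build GRCm38.p6), read 5′ to 3′ on the strand of the gene; capitals mark GCGCA, any base and GCGC. Sdha lies on the minus strand (chr13:74350241-74350490), Sdhd on the minus strand (chr9:50603850-50604099) and Ndufv3 on the plus strand (chr17:31519865-31520114).
Sdha: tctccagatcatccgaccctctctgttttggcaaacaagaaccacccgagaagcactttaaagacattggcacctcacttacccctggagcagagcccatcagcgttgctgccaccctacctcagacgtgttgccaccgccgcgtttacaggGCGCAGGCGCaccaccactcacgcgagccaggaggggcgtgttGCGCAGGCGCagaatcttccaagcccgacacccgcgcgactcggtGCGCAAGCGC
Sdhd: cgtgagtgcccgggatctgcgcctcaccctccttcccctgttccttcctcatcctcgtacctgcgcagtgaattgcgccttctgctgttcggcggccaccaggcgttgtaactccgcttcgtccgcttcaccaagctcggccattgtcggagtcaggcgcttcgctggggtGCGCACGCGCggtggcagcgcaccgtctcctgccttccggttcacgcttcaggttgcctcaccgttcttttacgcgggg
Ndufv3: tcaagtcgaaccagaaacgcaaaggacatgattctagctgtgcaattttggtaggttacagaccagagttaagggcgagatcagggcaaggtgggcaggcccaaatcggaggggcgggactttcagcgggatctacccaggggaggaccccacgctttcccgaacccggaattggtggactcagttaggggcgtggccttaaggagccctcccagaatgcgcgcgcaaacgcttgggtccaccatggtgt
The matches begin at positions -98, -55 and -10 from the start of Sdha and at -79 from that of Sdhd. Over windows of 300 bases (250 before to 50 after the start), which 74 of the 90 genes have in the RefSeq table, GCGCA, any base and GCGC on either strand occurred in 17 of 74 (22.97%), against 8.63% of 14369 genes on the array. Among the 16 genes with a called fall at 150 or by the trend below that have a window, 4 held it, namely Sdha, Sdhd, Atp5g3 and Atp5h. The ETS letters CCGGAAGT occurred in 5 of 74 (6.76%) against 6.65%, and the YY1 letters AAGATGGCG in 7 of 74 (9.46%) against 2.54%, with 0 of the 16. A match is a stretch of letters and shows no binding.

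In complex I, Ndufv3, a small accessory subunit beside the NADH-binding site, fell in both sexes on day 2. Female values were 12.53, 12.49, 12.48 and 12.47 at 0 and 12.28, 12.21, 12.32 and 12.37 at 150. Male values were 12.59, 12.46, 12.57 and 12.59 at 0 and 12.39, 12.45, 12.26 and 12.36 at 150. In neither sex did the groups overlap. The falls were 0.20 ± 0.06 (SE; adjusted p = 0.0152) and 0.19 ± 0.06 (SE; adjusted p = 0.0300). The female call ended without control replicate 1 or replicate 2 at 150 (adjusted p up to 0.104), and the male call without control replicate 1, 3 or 4 or replicate 1, 3 or 4 at 150 (up to 0.146). On day 7 the changes were -0.11 in females and -0.04 in males.

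Ndufb9, an accessory subunit of the membrane arm, fell in males on both days. On day 2 it read 13.04, 12.89, 12.95 and 12.97 at 0 and 12.87, 12.78, 12.72 and 12.83 at 150. On day 7 it read 13.03, 12.94, 12.98 and 13.07 at 0 and 12.81, 12.78, 12.91 and 12.89 at 150. Both times all treated arrays were below all controls, by 0.16 ± 0.05 on average (SE; adjusted p = 0.0261 on day 2 and 0.0477 on day 7). The day 2 call ended without control replicate 1 or 4 or replicate 2 or 3 at 150 (adjusted p up to 0.149), and the day 7 call without control replicate 1, 3 or 4 or replicate 1 or 2 at 150 (up to 0.186). In females the changes were -0.09 and -0.08, not called. With the mean of its probe sets, Ndufb9 was not called on either day in males (-0.09 and -0.12, adjusted p = 0.378 and 0.209). A second bright probe set for Ndufb9 changed by -0.16, -0.14, -0.11 and -0.10 in females on days 2 and 7 and males on days 2 and 7.

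Ndufa1, a small membrane subunit needed for assembly of complex I, fell in females on day 2, from 13.04, 13.10, 13.02 and 13.02 at 0 to 12.90, 12.82, 12.94 and 12.94 at 150. The groups did not overlap, and the fall of 0.14 ± 0.04 (SE; adjusted p = 0.0101) lost its call without replicate 2 at 0 or at 150 (adjusted p up to 0.105). Ndufa8, another accessory subunit, was the sole member that rose, in females on day 2. It read 11.76, 11.87, 11.61 and 11.90 at 0 and 12.05, 12, 11.96 and 11.95 at 150. These groups did not overlap either, but the adjusted p of 0.0499 lay at the threshold (change 0.21 ± 0.07, SE), and the call ended without control replicate 1 or 3 or any replicate at 150 (up to 0.310). In males on day 2 its values of 12.05, 11.92, 11.81 and 12.03 at 150 overlapped those at 0. In all, complex I had 2 falls and 1 rise among 36 genes in females on day 2, 2 falls in males on day 2, 1 fall in males on day 7 and no call in females on day 7.

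None of the 8 assembly factors was called at 150 in any sex or day. Their values varied more than those of the subunits: Ndufaf5 had the highest change of all members in females on day 2, at 0.37 ± 0.16 (SE; adjusted p = 0.193, overlapping groups), and 0.08, 0.17 and 0.24 in the others. Ndufaf1 was at -0.25 and -0.33 on day 2 in females and males (adjusted p = 0.241 and 0.0811) and at -0.07 and 0.01 on day 7.

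In complex III, Uqcrh, the hinge protein, which helps complex III bind cytochrome c, fell in females on day 2. It read 12.53, 12.57, 12.51 and 12.44 at 0 and 12.45, 12.19, 12.18 and 12.37 at 150, so the groups met at a single array. The fall was 0.21 ± 0.06 (SE; adjusted p = 0.0275) and lost its call without replicate 1, 2 or 3 at 0 or replicate 2 or 3 at 150 (adjusted p up to 0.164). Males on day 2 had a like change of -0.20 that was not called. A second bright probe set for Uqcrh changed by -0.19, -0.11, -0.20 and -0.14 in females on days 2 and 7 and males on days 2 and 7. The other 7 genes of the complex, among them the core proteins Uqcrc1 and Uqcrc2 and the Rieske protein gene Uqcrfs1, were not called at 150.

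In complex IV, Cox4i1, the widely expressed isoform of subunit 4, fell in males on day 2, from 13.33, 13.15, 13.20 and 13.27 to 13.06, 13.11, 13.05 and 13.12. The groups did not overlap. The fall was 0.15 ± 0.04 (SE; adjusted p = 0.0202), and the call ended without control replicate 1 or 4 or replicate 1 or 3 at 150 (adjusted p up to 0.150). It was at -0.09 in females on day 2 (adjusted p = 0.251, no overlap), 0.00 in females on day 7 and -0.04 in males on day 7.

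Cox7a1, the isoform of heart, skeletal muscle and brown fat, had the lowest change of all members in every comparison at 150, but also the widest spread. Female values on day 2 were 5.56, 6.26, 5.40 and 5.58 at 0 and 5.08, 5.19, 5.23 and 5.05 at 150, a change of -0.56 ± 0.19 (SE; adjusted p = 0.0714) without overlap. Males on day 2 read 5.57, 5.71, 5.81 and 5.54 at 0 and 5.18, 5.22, 5.11 and 5.12 at 150, without overlap (-0.50 ± 0.19, adjusted p = 0.130). On day 7 the changes were -0.38 in females, with overlap, and -0.43 in males, without (adjusted p = 0.363 and 0.239). None was called; without female control replicate 3, the female day 2 change passed the threshold (adjusted p = 0.0484). The mean of 11 skeletal and heart muscle markers lay between 4.52 and 4.74 in all groups at 0 and 150. Of these markers, 4 or 5 lay at or below the lower quartile. At 150, 0 of them fell and 1 rose, in males on day 2. The mean of 4 fat markers lay between 4.21 and 4.73, with 2 of them at or below the lower quartile.

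Other isoforms with narrow tissue distribution did not share a direction. Cox6a2 was at 0.02, 0.00, 0.09 and 0.14, Cox8b at -0.17, 0.09, -0.07 and 0.17, and Cox4i2 at 0.00, 0.11, 0.06 and -0.04 in females on days 2 and 7 and males on days 2 and 7. Cox7a2, the isoform found in liver, was at -0.03, 0.01, -0.13 and -0.02. None of these was called at 150.

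None of the 17 ATP synthase genes was called at 150. The median change was -0.053 and -0.030 in females and -0.058 and -0.051 in males on days 2 and 7, and 13 or 14 of 17 were below 0 each time. The 3 genes for the same c ring subunit differed in value: Atp5g1 was at -0.06, -0.14, 0.02 and -0.07, Atp5g2 at 0.09, -0.01, 0.06 and 0.06, and Atp5g3 at -0.09, -0.10, -0.07 and -0.06.

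**Figure D2:**
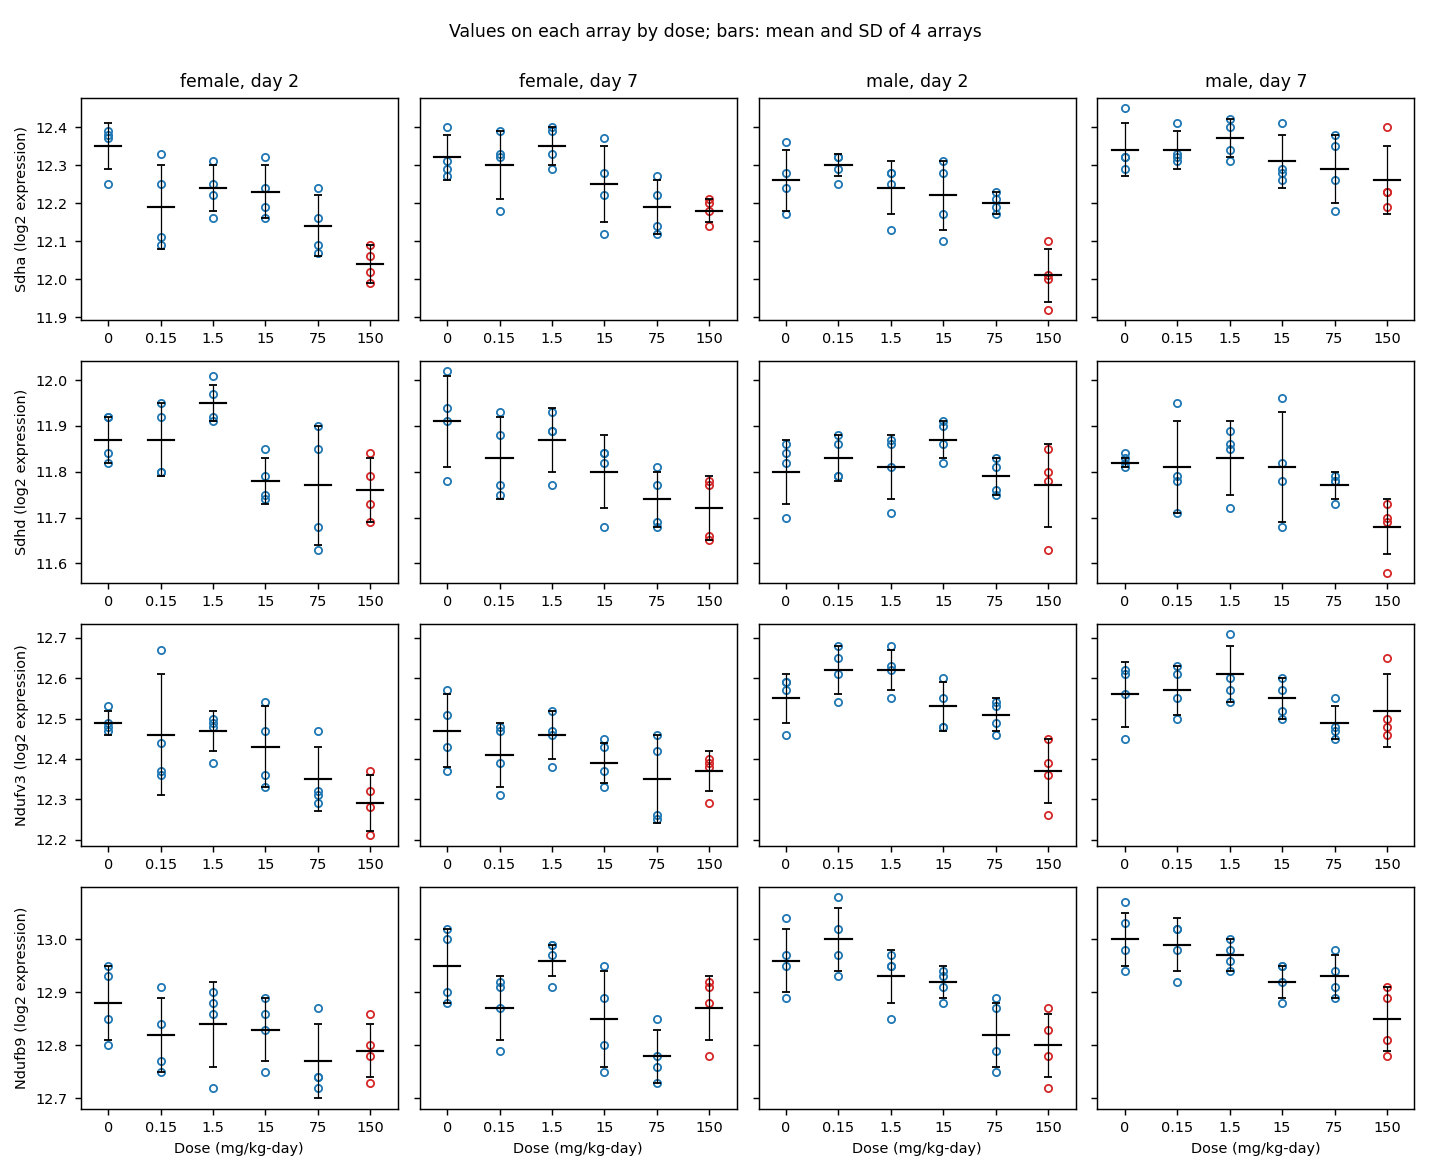
Log2 expression of Sdha, Sdhd, Ndufv3 and Ndufb9 (rows) on every array by dose in mg/kg-day, for each sex and day (columns); circles are arrays (red at 150), long bars the mean and whiskers the SD of 4 arrays. Sdha on day 2 is lowest at 150 in both sexes, at means of 12.04 and 12.01 against 12.35 and 12.26 at 0.

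Doses under 150 gave 3 calls in 16 comparisons, all of them falls at 75 in females. On day 2, Atp5g3 read 13.60, 13.61, 13.66 and 13.53 at 0 and 13.47, 13.41, 13.42 and 13.42 at 75, a fall of 0.17 ± 0.04 (SE; adjusted p = 0.0126), where 0.143% of all genes fell. On day 7, Atp5e, the epsilon subunit of the ATP synthase, fell by 0.20 ± 0.05 (SE; adjusted p = 0.0405) and Ndufs3, a core subunit of complex I, by 0.19 ± 0.05 (SE; adjusted p = 0.0490), where 0.324% of all genes fell. In all 3 the groups did not overlap. The Atp5g3 call ended without control replicate 2 or 3 or replicate 2 or 4 at 75 (adjusted p up to 0.101), the Atp5e call without control replicate 2, 3 or 4 or replicate 1 or 3 at 75 (up to 0.442), and the Ndufs3 call without any control replicate or replicate 1, 3 or 4 at 75 (up to 0.490). At 150 on day 7, Atp5e read 12.26, 12.25, 12.27 and 12.23, within the range of 12.20 to 12.35 at 0.

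In females on day 7, more of the genes lay below dose 0 at 75 than at 150, a difference that was not tested. The median change at 75 was -0.089 (all genes, -0.020), 80 of 90 genes were below 0 (56.5% of all genes), and 27 were lower at an unadjusted p under 0.05 (5.92% of all genes), while at 150 these were -0.031, 65 and 10. The lowest mean deviation of the 90 genes from their means over all arrays, on any array, -0.122, was replicate 3 of that group at 75. Both doses were set against the same dose 0 arrays.

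At 0.15, 1.5 and 15, 0 of 90 genes were called in any of the 12 comparisons by limma; at an unadjusted p under 0.05, between 0 and 9 genes were lower and between 0 and 2 higher, where 1.86% to 4.29% of all genes were lower and 1.65% to 3.60% higher. Few genes of any kind passed the adjusted threshold at these doses: 0.0220% on each day at 15 in females, 0.0385% and 0.0110% at 15 in males on days 2 and 7, 0.0055% at 0.15 in males on day 7 and 0% in the other comparisons. Males at 75 had 0 calls on both days, against 0.440% and 0.247% of all genes called in either direction; at an unadjusted p under 0.05, 15 genes were lower on day 2 and 0 on day 7, where 5.34% and 3.11% of all genes were. Males on day 2 still had 0 calls at 15 and at 75 once the pair of arrays that went against their labels was left out.

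**Figure D3:**
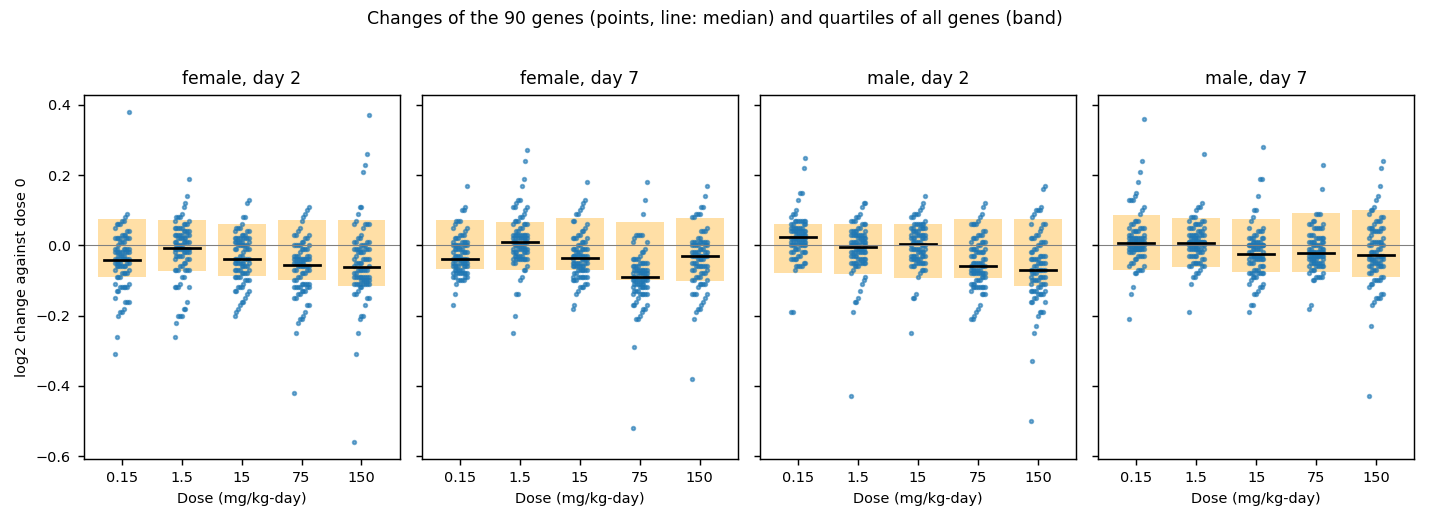
Log2 change against dose 0 of the 90 genes (points; black line, median) by dose in mg/kg-day, sex and day; the orange band spans the quartiles of all 18193 genes. In females on day 7 the points are lowest at 75 (median -0.089), and in males on day 2 the median goes from 0.023 at 0.15 to -0.070 at 150.

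A trend over the rank of the 6 doses, which uses all 24 arrays of a sex and day and is given as the fitted change from the lowest to the highest rank, called more genes. It shares its arrays with the comparisons above and is no independent support for them. By this trend, 6 of 90 genes fell in females on day 2 and 0 rose, where 4.19% of all genes fell and 4.54% rose. On day 7, 7 fell and 0 rose (1.99% and 2.36% of all genes). In males on day 2, 14 fell and 0 rose (2.91% and 3.13%), and in males on day 7, 2 fell and 0 rose (1.39% and 3.07%). At an unadjusted p under 0.05, 3, 0, 0 and 0 genes were higher, where 8.84%, 7.63%, 7.28% and 9.33% of all genes were. The 29 falls belonged to 20 genes. Fitted to the arrays of one sex and day alone, 3, 0, 4 and 0 genes fell, in females on days 2 and 7 and males on days 2 and 7. With arrays centred on their medians, 3 fell in females on day 2, 1 on day 7 and 1 in males on day 7; in females on day 7 the share of higher genes among all calls went from 54.2% to 65.7%.

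Bright genes were called more often in general. Among the brighter genes, which hold 82 of the 90, 7.03%, 3.32%, 5.23% and 2.35% fell by the trend, in females on days 2 and 7 and males on days 2 and 7; of the 82, these shares were 6.10%, 7.32%, 17.1% and 1.22%. The share of these genes thus lay near that of other bright genes in females on day 2 and below it in males on day 7.

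Complex IV had the most trend calls in males on day 2, 6 of its 17 genes: Cox4i1, Cox5b, Cox6b1, Cox6c, Cox7a2 and Cox7a2l, the last a factor of supercomplex assembly, with fitted falls between 0.14 and 0.16. The median over the 17 was -0.141, against -0.071 and -0.067 in females on days 2 and 7 and -0.045 in males on day 7. Cox5b, a nuclear-encoded subunit, was also called in females on day 2 (-0.14 ± 0.05, adjusted p = 0.0368), a call that ended without replicate 1 or 2 at 0, replicate 1 at 0.15, replicate 3 at 75 or replicate 3 or 4 at 150 (adjusted p up to 0.111). With the mean of its probe sets, the change of Cox5b was -0.07 there (adjusted p = 0.367) and -0.10 in males on day 2 (adjusted p = 0.168), and neither was called. Its values there were 13.40, 13.42, 13.33 and 13.36 at 0, 13.26, 13.28, 13.20 and 13.30 at 75 and 13.27, 13.27, 13.15 and 13.23 at 150, so both higher doses lay below all controls. Cox7a1 fell in females on both days and in males on day 7, with fitted changes of -0.48, -0.51 and -0.52 (adjusted p = 0.0498, 0.0496 and 0.0482), and each call ended without any of 16 to 18 of the 24 arrays, with adjusted p up to 0.234.

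In complex I, the trend called Ndufa1 and Ndufv3 in females on day 2, Ndufv1, the core subunit that binds NADH, in females on day 7 (-0.20 ± 0.06, adjusted p = 0.0253), Ndufa1, Ndufb9, Ndufb11 and Ndufv3 in males on day 2, and Ndufb9 in males on day 7. The smallest adjusted p among them was that of Ndufb9 in males on day 2, at -0.19 ± 0.04 (adjusted p = 0.000385). Its group means there ran from 12.96 at 0 to 12.92 at 15, 12.82 at 75 and 12.80 at 150. In complex II, Sdha fell in females on both days and in males on day 2 (-0.25, -0.16 and -0.22; adjusted p = 6.54e-05, 0.0253 and 0.000422), and Sdhd in females on both days (-0.15 and -0.19; adjusted p = 0.0348 and 0.00758).

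In complex III, Uqcrc2, a core protein, fell in females on day 7 (-0.16 ± 0.04, adjusted p = 0.0116) and Uqcrh in males on day 2 (-0.20 ± 0.05, adjusted p = 0.00910). The Uqcrc2 call ended with arrays centred on their medians, with the arrays of that sex and day alone and with the mean of its probe sets, where the change was -0.07 (adjusted p = 0.561); a second bright probe set was at 0.02. Among ATP synthase genes, Atp5g3 and Atp5h, the latter a subunit of the peripheral stalk, fell in females on day 7 (-0.11 and -0.15), and Atp5l and Atp5md, small membrane subunits, in males on day 2 (-0.12 and -0.18). None of the assembly factors was called by the trend.

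Calls that held when any single array of the 24 was left out were Ndufa1, Ndufv3 and Sdha in females on day 2, Sdhd and Uqcrc2 in females on day 7, and Atp5md, Cox7a2, Ndufa1, Ndufb9, Ndufv3 and Sdha in males on day 2. Of these, Sdha in both sexes on day 2, Sdhd, Uqcrc2, Cox7a2 and Ndufb9 were not called with the mean of their probe sets (adjusted p from 0.0530 for Cox7a2 to 0.561 for Uqcrc2). The count of 14 in males on day 2 became 8 without control replicate 1 and 9 without replicate 2 at 150; the count of 6 in females on day 2 became 3 without control replicate 1 or replicate 1 at 0.15; the count of 7 on day 7 became 4 without control replicate 2, replicate 3 at 75 or replicate 3 or 4 at 150. Without the pair of arrays that went against their labels, males on day 2 again had 14 falls (3.41% of all genes fell), of which 12 were the same: Cox7a1 and Uqcr11 entered, and Cox7a2l and Ndufb11 left.

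**Figure D4:**
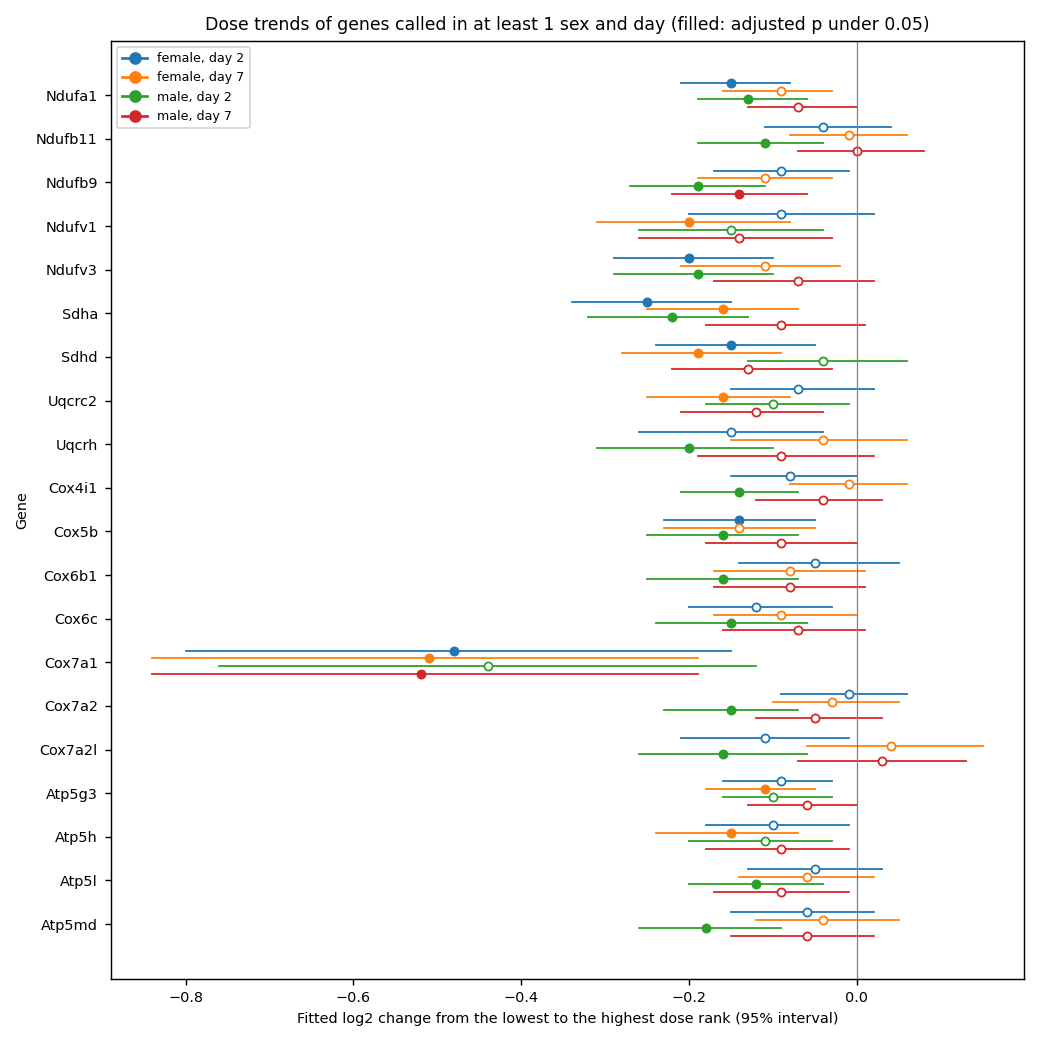
Fitted log2 change from the lowest to the highest dose rank with its 95% interval, for the 20 genes called in at least 1 sex and day; colours mark sex and day, and filled circles an adjusted p under 0.05. Except for Cox7a2l on day 7 and Ndufb11 in males on day 7, the circles lie left of 0, and Cox7a1 has the widest intervals.

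Neither sex nor day changed these responses by a called amount. Changes at 150 were set against each other, females minus males on days 2 and 7 and day 7 minus day 2 in females and males. By limma 0 of 90 genes differed in each of these 4 comparisons, where 0.0055%, 0.0879%, 0.874% and 0.132% of all genes did. At an unadjusted p under 0.05, 0, 1, 8 and 4 genes differed, where 3.58%, 4.63%, 8.16% and 9.35% of all genes did. The intervals of these differences were wider than those of the responses: within 1.25-fold lay 72, 68, 68 and 71 of 90 genes. For Sdha, females minus males was -0.06 on both days (95% interval -0.21 to 0.10), so the larger fall in females was not told apart from that in males.

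At dose 0, 2 of 90 genes differed between the sexes on day 2 and 0 on day 7. On day 2, Ndufaf7, a methyltransferase needed for assembly of complex I, was higher in females, at 8.30, 8.08, 8.12 and 8.18 against 7.80, 7.69, 7.95 and 8.08 in males, with a difference of 0.29 ± 0.08 (SE; adjusted p = 0.0243). Cox6b1 was lower in females, at 13.19, 13.20, 13.02 and 13.17 against 13.52, 13.33, 13.27 and 13.23 (-0.19 ± 0.05, adjusted p = 0.0395). Of all genes, 1.09% were higher and 0.962% lower in females. Both calls ended without female control replicate 1 or 4 or male control replicate 1 or 2 (adjusted p up to 0.176 and 0.369), and that of Cox6b1 also without female control replicate 3. On day 7, 0 of 90 differed by limma, where 4.63% of all genes were higher and 2.08% lower; 7 of 90 differed at an unadjusted p under 0.05, where 19.2% of all genes did.

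Day 7 and day 2 at dose 0 differed in 0 of 90 genes in either sex, where 0.0165% and 0% of all genes were called; at an unadjusted p under 0.05, 11 genes differed in females and 4 in males, where 7.94% of all genes did in each sex. Day and any batch of processing that goes with it cannot be told apart.

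The 90 genes varied together from array to array within groups. The mean correlation between the deviations of 2 genes from their group means was 0.195 over the 96 arrays, against 0.011 for all genes and 0.044 for the brighter genes. It was 0.291 within complex III, 0.268 within complex II, 0.257 within the ATP synthase, 0.237 within complex I, 0.149 among the assembly factors and 0.109 within complex IV. Complex IV holds dim genes, with gene means from 3.13 to 14.11, against 11.94 to 14.02 in complex III. The part of signal level in these differences was not tested. Genes on an array share its RNA and its normalization, and these correlations are a description. The mean deviation over all members ran from -0.063 in females at 75 on day 7 to 0.048 in males at 0.15 on day 2 over the groups.

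Where a member had another bright probe set, this mostly moved the same way. At 150, 50, 39, 50 and 43 of 62 such probe sets had the sign of the one used, in females on days 2 and 7 and males on days 2 and 7, with medians of -0.058, -0.006, -0.090 and -0.035.

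Genes that work beside the complexes changed in small numbers. Of 18 measured genes for electron carriers, 1 fell at 150 in each sex and day and 0 rose: Etfdh, the membrane enzyme that passes electrons from fatty acid oxidation to ubiquinone. In females on day 2 it read 11.75, 11.68, 11.63 and 11.66 at 0 and 11.34, 11.18, 11.31 and 11.23 at 150, a change of -0.41 ± 0.06 (SE; adjusted p = 1.53e-06). In males on day 2 it read 11.69, 11.66, 11.59 and 11.60 against 11.19, 11.07, 11.14 and 11.29 (-0.46 ± 0.06, adjusted p = 1.59e-07). On day 7 it changed by -0.44 in females and -0.37 in males, and in no sex or day did the groups overlap. Cyc1 of complex III, whose name the rule does not match, and cytochrome c itself, Cycs, were not called at 150; Cyc1 fell by the trend in females on day 7 (-0.25 ± 0.06, adjusted p = 0.00623).

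Of 39 assembly factors outside the Ndufaf genes, 1 rose in females on each day, 0 were called in males and 0 fell at 150. It was Coa6, a copper-handling factor of complex IV, which rose from 9.69, 9.62, 9.57 and 9.64 to 9.95, 10.08, 9.92 and 9.83 on day 2 (0.31 ± 0.10, adjusted p = 0.0384) and by 0.34 on day 7. In males on day 7 Coa6 read 9.56, 9.58, 9.36 and 9.27 at 0 and 9.78, 9.80, 9.61 and 9.68 at 150. These groups did not overlap, but the change was not called. In males on day 2 its means were 9.56 at 0 and 9.75 at 150. Of 20 regulators of mitochondrial biogenesis, 0, 2, 1 and 1 fell at 150 in females on days 2 and 7 and males on days 2 and 7. At that dose 0 rose. Polg, the polymerase of mitochondrial DNA, fell in the last 3, by 0.24, 0.21 and 0.29. The coactivator Ppargc1a and the factors Nrf1 and Tfam were not called at 150.

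At 150, of 17 measured citric acid cycle genes, 1 rose and 1 fell in females on day 2 and 1 rose on day 7. In males 1 fell on day 2 and none was called on day 7 at that dose. Mdh2, the mitochondrial malate dehydrogenase, rose by 0.31 in females on day 2 and Pdha1 of pyruvate dehydrogenase by 0.41 on day 7. Pcx, pyruvate carboxylase, fell by 0.28 in both sexes on day 2. By the trend, 1 of the 17 rose and 2 fell in females on day 2, and 1 rose and 1 fell on day 7. In males, 3 fell on day 2 by the trend (2.91% of all genes) and 4 rose on day 7 (3.07% of all genes). At 150, 4 of 76 mitochondrial ribosome genes rose and 1 fell in females on day 2 (3.32% and 2.14% of all genes). On day 7, 1 rose in females (1.52% of all genes), and none was called at 150 in males on either day. By the trend, 7 rose and 1 fell in females on day 2, and 1 rose and 2 fell on day 7. In males, 3 fell by the trend on day 2 and 0 were called on day 7. Of 16 inner membrane carriers and porins, Slc25a13, an aspartate and glutamate carrier, fell by 0.38 at 150 in males on day 7. None was called elsewhere at 150.

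Markers of other cell types moved beside these changes. At 150, of 13 Kupffer and macrophage markers 3 rose in males on day 7 and none was called elsewhere. The whole list lay apart by group: 6, 0, 12 and 0 of 13 were below 0 in females on days 2 and 7 and males on days 2 and 7, with medians of 0.014, 0.313, -0.315 and 0.652. Its mean over the list on single arrays ran from 9 to 10.19 at 0 and from 8.84 to 9.21 at 150 in males on day 2, and from 8.59 to 9.25 and from 9.43 to 10.02 in males on day 7. Of 7 endothelial markers, 2 fell on day 2 in each sex and 1 in males on day 7, with list means of 8.32 to 8.63 at 0 and 8.24 to 8.53 at 150 in females on day 2, and 8.17 to 8.55 and 8.14 to 8.28 in males. Below 0 were 4, 4, 6 and 4 of the 7, in females on days 2 and 7 and males on days 2 and 7. The medians were -0.145, -0.068, -0.205 and -0.001. Of 6 stellate cell markers, 3 fell in males on day 7. In the same order, 4, 4, 3 and 5 of the 6 were below 0, with medians of -0.201, -0.203, -0.090 and -0.297. Of 7 hepatocyte markers, 0 were called in females on day 2 and males on day 7, and 1 fell in each of the others; 6, 5, 7 and 7 were below 0, with medians of -0.056, -0.029, -0.024 and -0.110. S100a8 of the neutrophil list (5 measured) rose by 2.83 in females on day 2 and 3.22 in males on day 7; the list had 4 of 5 below 0 (median -0.199) in the first and 0 of 5 (median 0.187) in the second. Alas2 of the erythroid list (3 measured) rose by 1.03 in females on day 7, where the other two were below 0, and Cela1 of the pancreas list (7 measured) fell in females by 0.81 and 0.80; of 4 bile duct markers 0 changed. Their part in the changes of the 90 genes was not tested. The proliferation marker Mki67 rose on day 2, by 2.64 in females and 2.32 in males, and was not called on day 7.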

How the data were processed

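RNA was extracted from liver with Trizol and biotin-labelled, per the labels' protocols, and the authors deposited log2 expression values for 96 arrays. The scale was read from the values, and the sources used here name no normalization. Of 45101 probe sets, 34945 had 1 gene symbol in the platform annotation, 932 had several, 9160 had none and 64 were controls. The brightest single-symbol probe set stood for each of 18193 genes, with no filter on dim genes and no pseudocount. No 2 arrays held identical values.

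A model of 24 group means over 96 arrays with 72 residual degrees of freedom, made in R 4.3.3 with limma 3.58.1 and data.table (version 1.17.8), gave all contrasts, with Benjamini-Hochberg adjustment over all genes in each. The dose rank trend is a contrast of the same fit. Figures used matplotlib 3.10.9, with pandas 2.3.3 in Python 3.11.15.

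The genes and lists were chosen with earlier results of these data known. Named are called members, the member of each complex with the largest change at 150, the 4 Sdh genes, listed isoforms, and called genes of the related lists. The fit was tested on simulated data for females on day 2 at 150, over 18193 genes. Of 50 genes changed at each size, 0 were recovered at 1.1-fold, 3 at 1.15-fold, 14 at 1.25-fold and 31 at 1.5-fold. Recovery was not computed for the genes described here. Their median SD within a group was 0.084, against 0.15 over all genes and 0.144 over the brighter genes. The simulated comparison gave 50 calls and the measured one 994, so the unadjusted p needed for a call differed. These recoveries therefore do not give the chance of finding a change in the genes described here.

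Alternatives were quantile normalization, centring of arrays, fits by sex and day, a replicate block, probe set means, a filter on dim genes, a trended robust prior, array weights, each array left out in turn and, chosen after seeing the data, leaving out the pair of arrays that went against their labels.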

Additional observations from a re-analysis of the deposited data

Results flagged for a closer look

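Within groups of 4 arrays, a single array stood far from the other 3 in 2 of 96 sets of values, where chance gives about 1 in 20. The sets were the mean deviation of all 90 genes in each of the 24 groups, and single genes in the groups at 0 and 150. Those genes were Cox7a1 and the genes called at 150, so the sets reuse the same arrays. The mean deviation of all 90 genes in males at 15 on day 2 was 0.033, -0.012, 0.042 and 0.041, so replicate 2 stood apart, with a gap of 0.842 of the range. Ndufv3 in females at 150 on day 7 read 12.39, 12.40, 12.29 and 12.38, with replicate 3 apart by 0.838 of the range.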

How the results depend on the processing

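Of 49 gene results run under the alternatives, those of called members and of Cox7a1 at 150, 0 turned direction. The called ones were picked from these same arrays, so a kept direction is no independent support. The other named genes were not run. The median changes of the 90 genes at 150 stayed below 0, but on day 7 went from -0.031 to -0.003 in females and from -0.027 to -0.013 in males with arrays centred on their medians, and from -0.056 to -0.010 and from -0.036 to -0.011 on leaving out single arrays. Counts are given with the main count in brackets. Quantile normalization gave 4 (1) falls in females on day 7 and 7 (4) in males on day 2 at 150, 10 (6), 11 (7), 22 (14) and 5 (2) falls by the trend in females on days 2 and 7 and males on days 2 and 7, 1 (0) sex difference on day 7 and 2 (1) calls in females on day 2 below 150. Arrays centred on their medians gave 0 (1) falls on day 7 in each sex at 150, 3 (6), 1 (7) and 1 (2) by the trend in females on days 2 and 7 and males on day 7, 1 (2) sex difference on day 2, and 0 (1) and 0 (2) calls below 150 in females on days 2 and 7. The arrays of one sex and day alone gave 1 (4) falls and 0 (1) rises in females on day 2, 0 (1) on day 7, 1 (4) in males on day 2 and 0 (1) on day 7 at 150, 3 (6), 0 (7), 4 (14) and 0 (2) by the trend, 1 (2) sex difference on day 2, and 0 (1) and 0 (2) calls below 150 in females. With the replicate block, 0 (1) fell in males on day 7 at 150, 1 (0) rose by the trend in females on day 2, 1 (2) differed by sex on day 2 and 2 (1) were called below 150 in females on day 2; 43 of 45 gene calls held. Deviations of same-numbered arrays correlated between -0.16 and 0.14, over 0.1 in 2 of 16 cases. These few values do not settle whether the numbers pair the arrays. The mean of a gene's probe sets gave 4 (7) and 0 (2) falls by the trend on day 7 in females and males, and 2 (1) and 1 (0) calls below 150 on day 2; 21 of 49 gene results then missed the threshold. Leaving out dim genes gave 2 (1) falls in females on day 7 and 9 (4) in males on day 2 at 150, 11 (7) and 22 (14) by the trend there, 1 (0) sex difference on day 7, and 2 (1), 4 (2) and 1 (0) calls below 150 in females on days 2 and 7 and males on day 2. A trended robust prior gave 2 (1) falls in females on day 7 at 150, and 2 (1), 4 (2) and 1 (0) calls below 150. Array weights gave 0 (1) rises in females on day 2, 2 (1) falls on day 7 and 0 (1) in males on day 7 at 150, and 2 (1) and 1 (2) calls below 150 in females. Without the pair of arrays that went against their labels, 0 (1) rose in females on day 2 at 150. Leaving out single arrays gave 1 to 4 falls and 0 to 1 rises in females on day 2, 0 to 2 falls on day 7, 1 to 7 in males on day 2 and 0 to 1 on day 7 at 150; by the trend, 3 to 9 falls and 0 to 1 rises, 4 to 9, 8 to 16 and 0 to 2 falls. Sex differences were 0 to 2 on day 2 and 0 to 1 on day 7, calls below 150 in females 0 to 2 on day 2 and 0 to 4 on day 7, and day and response differences 0. The cause of these shifts was not tested. Precision is limited by 4 arrays a group, and the intervals of the changes give its size for each gene.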
